A study of Mus musculus with 3 samples.

Results

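Chemokines are small secreted proteins that attract leukocytes through receptors on their surface. The account covers 6 chemokine genes, Ccl5, Xcl1, Ccl3, Ccl4, Ccl9 and Cxcl16, taken by gene symbol from the probe sets that carry a single symbol in the platform annotation. All 6 were found among the 10191 genes with a value, each through 1 probe set (17266946, 17229187, 17266967, 17254283, 17266952 and 17265268 in that order). Their values were followed across 3 sorted populations of mouse CD8+ T cells, called CXCR3+ innate, CXCR3- innate and naive by the submitters. Ccl5, Xcl1, Ccl4 and Ccl3 had their highest value in CXCR3+ innate cells and their lowest in naive cells, by 25.2-fold for Ccl5 and 1.46-fold for Ccl3, whereas Ccl9 was nearly level and Cxcl16 was equal on all 3 arrays.

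The study sorted these populations by flow cytometry from spleen and lymph node of C57BL/6 mice that report the chemokine receptor CXCR3 with green fluorescent protein, and hybridised 1 Affymetrix array for each. The animals are named CXCR3-GFP Reporter mice in the series and CIBER mice in the RNA protocol, and all 3 populations carry the reporter. They were naive mice kept pathogen-free, and no age or sex is given. Cells were stained for CD44, CD62L and CD8, but the gates that set innate apart from naive cells are not stated in the labels. RNA came from about 3 to 5 mice, so an array is not the value of 1 animal. The values are log2 RMA expression values, on which a difference of 1 is a 2-fold difference. With 1 array a population there was no spread between replicates and no test, so higher and lower describe these 3 arrays, and neighbouring values in any order of levels below could not be told apart by a test. In sorted bulk samples, a larger share of cells that express a gene and more RNA per cell cannot be told apart.

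Of 7 marker genes of CD8+ T cells 6 had a value, each above the median over genes on every array. Cd8b1, a chain of the CD8 coreceptor, read 11.31 on the CXCR3+ innate array, 11.29 on the CXCR3- innate array and 11.54 on the naive array, and Cd3e read 11.45, 11.51 and 11.81 in the same order. On the CXCR3- innate array all 6 were below their naive value, with a list median of -0.41, Cd3g at -0.93, Cd8a at -0.66 and Cd3d at -0.52, and on the CXCR3+ innate array the list median relative to naive was -0.27. Cxcr3, the gene behind the sort, read 7.97 on the CXCR3+ innate array, 7.82 on the CXCR3- innate array and 7.57 on the naive array, so the sorted difference in reporter was accompanied by a difference of 0.15 in the array value between the innate populations. The 4 marker genes of memory-phenotype CD8+ T cells had a median difference from the naive array of 1.03 on the CXCR3+ innate array. On the CXCR3- innate array it was 0.68. On the CXCR3+ innate array 3 of the 4 were at least 2-fold above naive, and on the CXCR3- innate array only 1, Ly6c2. Il2rb was level between the CXCR3- innate and naive arrays, at 9.86 and 9.85, against 10.85 on the CXCR3+ innate array. The table holds no probe set whose highest value is under 7, and 34.2% of its probe sets have an identical value on all 3 arrays, so an equal value does not show equal expression.

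Several of these chemokines are shared between T cells, natural killer cells and myeloid cells. CCL5, also called RANTES, and the pair CCL3 and CCL4, the macrophage inflammatory proteins 1 alpha and 1 beta, are CC chemokines that attract effector T cells and macrophages. Memory CD8+ T cells are known for keeping Ccl5 messenger RNA at rest and releasing the protein quickly after antigen contact, while Ccl3, Ccl4 and Xcl1 are classically induced by T cell receptor signals. XCL1, or lymphotactin, is the C chemokine of CD8+ T cells and natural killer cells and acts on XCR1 of cross-presenting dendritic cells. CCL9 is a CCR1 ligand of myeloid cells in mice, and CXCL16 is made as a membrane protein, serves as ligand of CXCR6 and is best known from antigen-presenting cells.

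Sequences upstream of the genes are shown for every member found in a promoter table, whatever its values. Among them Xcl1 and Ccl3 were higher on both innate arrays than on the naive array, while Ccl9 was nearly level. Ccl5 and Ccl4, also higher on both innate arrays, and Cxcl16 had no entry. The RefSeq promoter table of build GRCm38.p6 matched 3 of the 6 members, Xcl1, Ccl3 and Ccl9. The lines give the 250 bases before the start of each gene, 5′ to 3′ on the minus strand, which carries all 3 genes. They lie at chr1:164935523-164935772 for Xcl1, chr11:83649379-83649628 for Ccl3 and chr11:83578637-83578886 for Ccl9. Capitals mark matches to a T-box motif, an AP-1 motif or the NF-kB consensus on either strand.
Xcl1: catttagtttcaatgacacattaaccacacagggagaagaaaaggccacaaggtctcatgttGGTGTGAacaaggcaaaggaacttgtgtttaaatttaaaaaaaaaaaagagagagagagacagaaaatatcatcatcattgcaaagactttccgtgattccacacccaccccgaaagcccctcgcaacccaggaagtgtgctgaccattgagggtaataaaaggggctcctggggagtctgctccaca
Ccl3: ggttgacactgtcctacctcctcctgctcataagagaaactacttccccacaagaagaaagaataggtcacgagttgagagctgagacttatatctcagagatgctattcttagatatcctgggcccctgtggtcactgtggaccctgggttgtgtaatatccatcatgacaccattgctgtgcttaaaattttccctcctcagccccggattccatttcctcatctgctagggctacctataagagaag
Ccl9: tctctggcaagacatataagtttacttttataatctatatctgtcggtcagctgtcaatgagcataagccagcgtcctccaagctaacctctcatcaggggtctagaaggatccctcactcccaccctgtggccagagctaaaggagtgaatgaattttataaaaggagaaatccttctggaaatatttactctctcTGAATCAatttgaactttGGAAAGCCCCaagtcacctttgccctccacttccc

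The T-box motif TCACACC, the kind of site that T-bet and Eomes bind, was found in the Xcl1 window, on the opposite strand from 188 to 182 bases before the start, and in neither the Ccl3 nor the Ccl9 window. It occurs in 3.33% of the 32851 windows of this length in the table. The AP-1 motif TGANTCA matched in the Ccl9 window, where 1 stretch from 53 to 47 bases before the start reads as a match on both strands, and it occurs in 6.75% of windows. The NF-kB consensus matched in the Ccl9 window from 35 to 26 bases before the start and occurs in 3.9% of windows. The NFAT core GGAAA matched 1 time in the Xcl1 window and 2 times each in the Ccl3 and Ccl9 windows, is not capitalised, overlaps the NF-kB match in Ccl9 and occurs in 55.6% of windows. An interferon-response core, GAAANGAAA or GAAANNGAAA, matched in none of the 3 windows and occurs in 5.38% of all. Such matches describe letters and show no binding.

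Ccl5 had a value of 12.49 on the CXCR3+ innate array, 10.85 on the CXCR3- innate array and 7.83 on the naive array. The innate arrays were both far above the naive array, and the CXCR3+ array was above the CXCR3- array. Relative to naive cells the difference was 4.66 on the log2 scale, or 25.2-fold, in the CXCR3+ population and 3.02, or 8.10-fold, in the CXCR3- population. The CXCR3+ value exceeded the CXCR3- value by 1.64, or 3.12-fold. Ccl5 ranked 1 of 10191 genes by positive difference in each of these comparisons, which share arrays and so are not independent of each other. It lay 4.85 above the array's median over genes in CXCR3+ innate cells and 3.22 above it in CXCR3- innate cells, against 0.18 above it in naive cells. A fold over a naive value this near the median depends on background that these values do not give, and the same holds for Xcl1, whose naive value was 0.07 below it.

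Xcl1 had a value of 8.92 on the CXCR3+ innate array, 8.18 on the CXCR3- innate array and 7.58 on the naive array. The 3 arrays were ordered as for Ccl5, with smaller steps. CXCR3+ innate minus naive was 1.34, a 2.54-fold difference that ranked 5 among all genes. CXCR3- innate minus naive was 0.60 or 1.52-fold, ranking 10, and CXCR3+ innate minus CXCR3- innate was 0.74 or 1.67-fold, ranking 55. Thus the gene of the XCR1 ligand stood within the first 10 positive differences of either innate population from naive cells, although only the CXCR3+ population passed 2-fold.

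Ccl4 read 8.63 on the CXCR3+ innate array, 8.37 on the CXCR3- innate array and 8.07 on the naive array, again with the naive array lowest. Its differences from naive cells were 0.56 or 1.47-fold in CXCR3+ innate cells and 0.29 or 1.22-fold in CXCR3- innate cells, and the innate populations differed by 0.27. Ccl3 read 7.56 on the CXCR3+ innate array, 7.48 on the CXCR3- innate array and 7.02 on the naive array. The difference from naive cells was 0.54 or 1.46-fold in CXCR3+ innate cells and 0.47 or 1.38-fold in CXCR3- innate cells, so that both innate arrays lay near each other, 0.08 apart. Ccl3 ranked 69 and 31 by difference from naive cells in CXCR3+ and CXCR3- innate cells, and Ccl4 ranked 65 and 186. The Ccl3 value lay below the array's median over genes on all 3 arrays, by 0.07 on the CXCR3+ innate array, 0.14 on the CXCR3- innate array and 0.63 on the naive array. Ccl3 and Ccl4 are neighbours on chromosome 11, and their annotated spans overlap in RefSeq GRCm38.p6. The sources used here do not say how the array's probes divide that stretch.

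Ccl9 and Cxcl16 had nearly level or equal values. Ccl9 read 7.76 on the CXCR3+ innate array, 7.78 on the CXCR3- innate array and 7.73 on the naive array, a total range of 0.05. Cxcl16 read 7.45 on all 3 arrays, and its differences were 0.00. Ccl9 lies next to Ccl5 among protein-coding genes of chromosome 11 in the same annotation, yet the CXCR3+ innate minus naive difference was 0.03 for Ccl9 and 4.66 for Ccl5. Cxcl16 was below the array's median over genes in every population, by 0.18 on the CXCR3+ innate array, 0.18 on the CXCR3- innate array and 0.20 on the naive array.

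**Figure D1:**
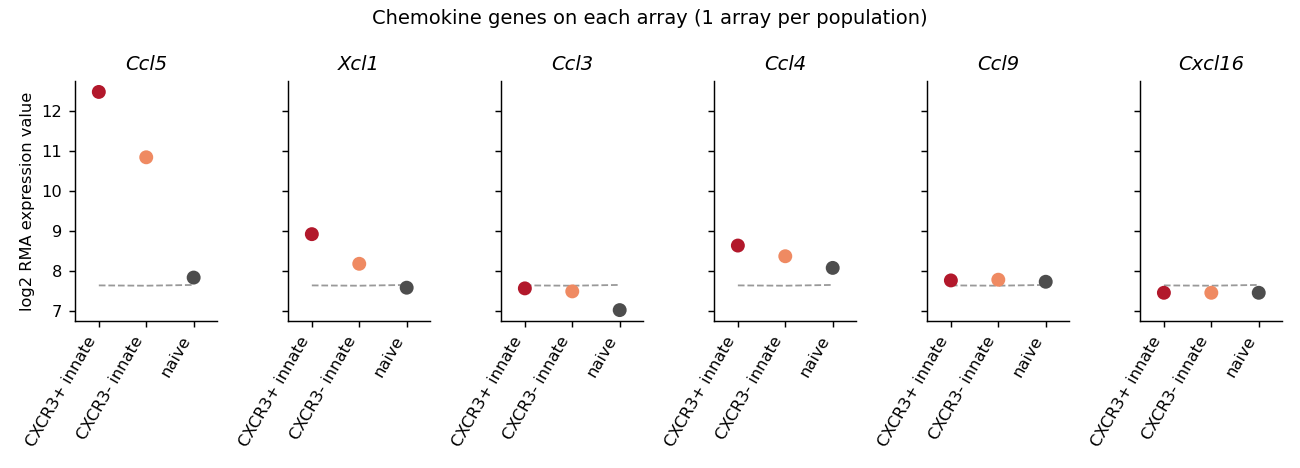
Log2 RMA expression values (vertical axis) of the 6 chemokine genes in the CXCR3+ innate, the CXCR3- innate and the naive population, with 1 point per array and no error bar because each population has 1 array. The dashed line is each array's median over 10191 genes; Ccl5 stands at 12.49, 10.85 and 7.83, whereas Cxcl16 reads 7.45 on each array.

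A size rule was used to count differences: at least 2-fold, with the higher value at or above its array's median over genes, which was 7.63 on the CXCR3+ innate array, 7.63 on the CXCR3- innate array and 7.65 on the naive array. Between the CXCR3+ innate and naive arrays, 2 of the 6 chemokine genes, Ccl5 and Xcl1, were higher by this rule and none was lower, beside 0.137% of all genes that were higher. Between the CXCR3- innate and naive arrays, Ccl5 alone was higher, beside 0.0196% of all genes, which is 2 genes. Between both innate arrays, Ccl5 alone was higher, beside 0.147% of all genes. Calls between the innate arrays were mostly in 1 direction, with 15 genes higher and 1 lower on the CXCR3+ array. Differences above 0 were found for 5 of the 6 genes on the CXCR3+ innate array relative to naive, against 20.7% of all genes, and for 5 of the 6 on the CXCR3- innate array, against 21.6%. Between the innate populations 4 of the 6 were above 0, against 28.7%, with Ccl9 at -0.02 and Cxcl16 equal. The median difference of the 6 genes relative to naive was 0.55 in the CXCR3+ population, 0.38 in the CXCR3- population and 0.17 between the innate populations, while the median over all genes was 0.00 in each. The genes were chosen with earlier results of these arrays known, so these counts describe them and are not independent evidence.

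**Figure D2:**
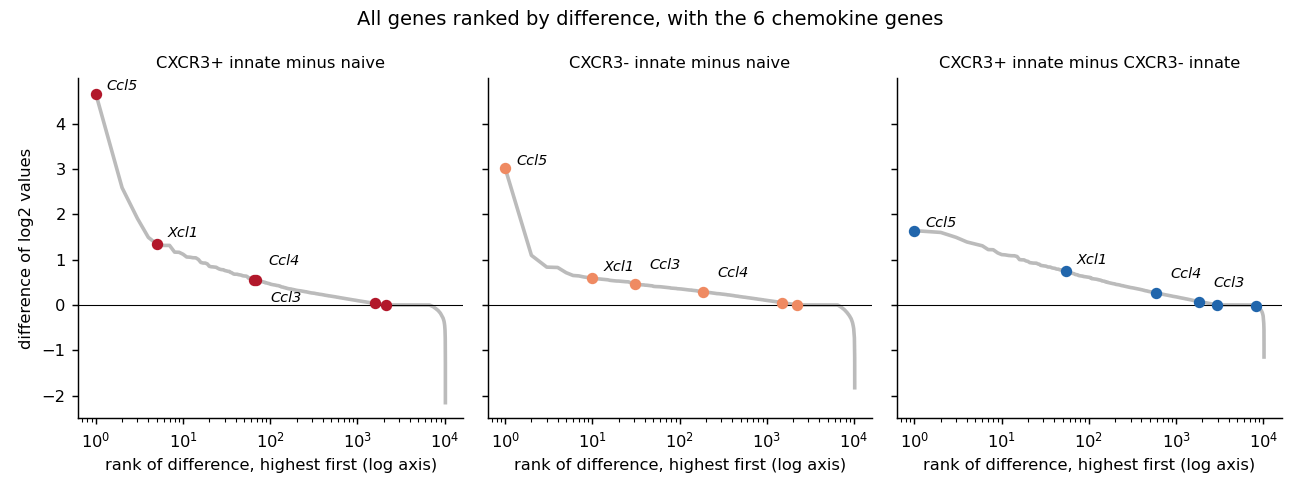
Difference of log2 values (vertical axis) against rank among 10191 genes, highest first (logarithmic horizontal axis), in 3 comparisons, with points for the 6 chemokine genes; Ccl9 and Cxcl16 are not labelled by name. Ccl5 is at rank 1 in each comparison, Xcl1 at ranks 5, 10 and 55, and the plateau at 0 holds the genes equal on both arrays.

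The other chemokine genes were read in the same way. Of 32 further mouse chemokine genes sought, 11 had a value, and none of these was 2-fold higher or lower in any comparison. Of all 10191 genes, 24 were called in CXCR3+ innate minus naive, 25 in CXCR3- innate minus naive and 16 between the innate arrays. None of 11 is therefore near the share over all genes. On all 3 arrays 6 of the 11 were equal, and the largest absolute difference among them in any comparison was 0.25. That value belonged to Cxcl17, a mucosal chemokine, at 8.14 on the CXCR3+ innate array, 8.39 on the CXCR3- innate array and 8.14 on the naive array. In CXCR3+ minus CXCR3- innate cells Cxcl17 was at -0.25, opposite in sign to Ccl4 at 0.27 and Ccl3 at 0.08. Its size was about that of Ccl4 and larger than that of Ccl3. Cxcl2, a neutrophil attractant, read 7.07, 7.08 and 6.89 in the same order, and its difference from naive cells was 0.18 in CXCR3+ innate and 0.20 in CXCR3- innate cells. A further 27 probe sets carry the symbols of several genes, among them Ccl19, Ccl21 or Ccl27 copies, and cannot be given to 1 gene. Their largest absolute difference was 0.42.

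**Figure D3:**
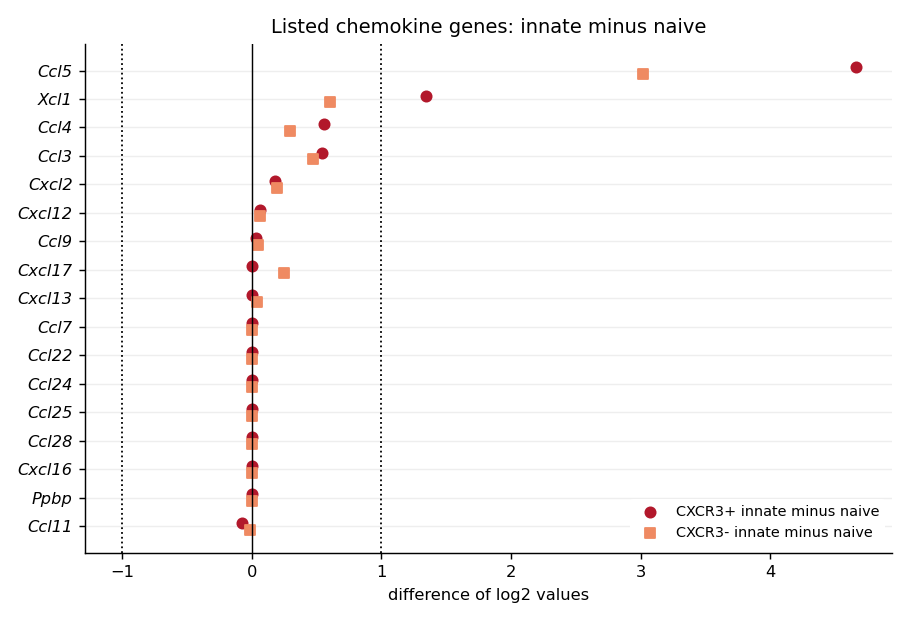
Difference of log2 values from naive cells (horizontal axis) for the 17 chemokine genes with a value, as circles for the CXCR3+ and squares for the CXCR3- innate population, with dotted lines at a 2-fold difference. Ccl5, Xcl1, Ccl4 and Ccl3 lie to the right of the others, at 4.66, 1.34, 0.56 and 0.54 in CXCR3+ innate cells.

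Genes of the receptors for these chemokines had few values. Of 7 sought, 3 were measured. Xcr1, the receptor of XCL1, read 7.09 on the CXCR3+ innate array, 7.09 on the CXCR3- innate array and 7.03 on the naive array. Cxcr6, the receptor of CXCL16, read 7.21 on each array, and Ackr2, a scavenging receptor of inflammatory CC chemokines, likewise had an identical value on each.

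Genes that regulate or process chemokines were taken from a list of 24, of which 23 were measured. In CXCR3+ innate minus naive 2 of the 23, Tbx21 and Bhlhe40, were higher by the size rule, beside 0.137% of all genes, and none was lower. None was called in CXCR3- innate minus naive, beside 25 of all 10191 genes, or between the innate populations, beside 16. Both are near the share over all genes. The list median relative to naive was 0.00 in the CXCR3+ population and -0.08 in the CXCR3- population, and it was 0.00 between the innate populations. Tbx21, encoding T-bet, a T-box factor of type 1 immunity, read 8.68 on the CXCR3+ innate array, 7.98 on the CXCR3- innate array and 7.37 on the naive array, a difference from naive of 1.31 in the CXCR3+ and 0.62 in the CXCR3- population. Bhlhe40, a transcription factor of activated T cells, stood at 7.93, 7.36 and 6.81 on these arrays, and its CXCR3+ innate minus naive difference was 1.12. Eomes, the other T-box factor of CD8+ T cells, read 7.92 on the CXCR3+ innate array, 7.78 on the CXCR3- innate array and 7.06 on the naive array, with differences from naive of 0.85 and 0.71. Eomes was under 2-fold in both. On the other side Jun, an AP-1 subunit, differed from naive cells by -0.72 in CXCR3+ innate and -0.61 in CXCR3- innate cells, and Rela, an NF-kB subunit, by -0.17 and -0.54. Dpp4, a surface peptidase that trims chemokines including CCL5, differed by -0.48 and -0.35. Outside the naming rule and after their values were seen, 2 further genes are given: Klf13, a factor known for late Ccl5 transcription in T cells, at -0.26 in CXCR3+ innate and -0.03 in CXCR3- innate cells relative to naive, and Adam10, the protease that sheds CXCL16, at -0.07 and -0.09.

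Effector products of CD8+ T cells were sought as 15 genes, of which 11 were measured. Ifng, Il2, Csf2 and Gzma had no value and could not be compared. None of the 11 was 2-fold higher or lower than in naive cells in either innate population. Of all 10191 genes, 24 were called in the CXCR3+ and 25 in the CXCR3- population, so none of 11 is near that share. In CXCR3+ innate minus CXCR3- innate 1 of the 11 was higher, beside 0.147% of all genes. That gene was Ctsw, encoding cathepsin W, at 10.80 on the CXCR3+ innate array, 9.71 on the CXCR3- innate array and 10.16 on the naive array. Fasl, the death ligand, read 8.10, 7.48 and 7.18 in that order, with a CXCR3+ innate minus naive difference of 0.92. Cst7, the protease inhibitor cystatin F, and Nkg7, a cytotoxic granule protein, had differences from naive of 0.38 and 0.39 in the CXCR3+ population and of -0.34 and -0.18 in the CXCR3- population. Gzmm, a granzyme, was at 0.43 in the CXCR3+ and 0.24 in the CXCR3- population, and Ltb, lymphotoxin beta, at -0.14 and -0.40. The list median relative to naive was 0.19 in the CXCR3+ and 0.00 in the CXCR3- population, and that of CXCR3+ minus CXCR3- was 0.19. Ccl5 and Xcl1 thus had larger differences from naive cells, in CXCR3+ innate cells, than any of these 11 effector genes.

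**Figure D4:**
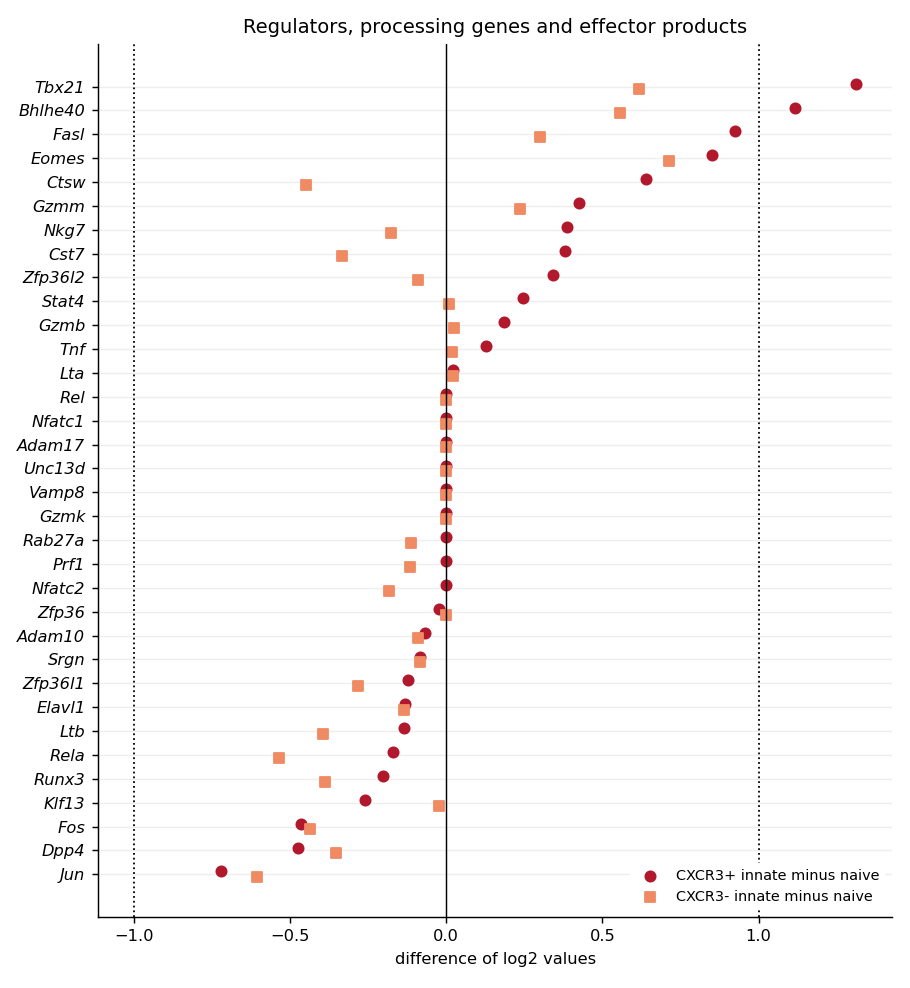
Difference of log2 values from naive cells (horizontal axis) for 34 measured regulators, processing genes and effector products, as circles for the CXCR3+ and squares for the CXCR3- innate population, with dotted lines at a 2-fold difference. Tbx21 at 1.31 and Bhlhe40 at 1.12 are the circles beyond the line, and Jun at -0.72 is the lowest circle.

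For each chemokine gene with a difference of at least 0.5 from naive cells, the 3 genes with the most similar pair of differences from naive were listed, by Euclidean distance on the log2 scale over 3 arrays among 4607 candidate genes. With 3 arrays such likeness is easily met. No gene came close to Ccl5: the nearest was Ly6c2, a surface antigen of memory-phenotype cells, at a distance of 2.83, with differences of 2.59 in CXCR3+ innate and 1.09 in CXCR3- innate cells. Klrc1, encoding the receptor NKG2A, followed at 3.69 and Slamf7, a receptor of natural killer and cytotoxic T cells, at 3.85. Xcl1 lay at 0.03 from Tbx21, whose differences of 1.31 and 0.62 stand beside 1.34 and 0.60 for Xcl1. The next were Plek, encoding pleckstrin, at 0.21, and Il18rap, which encodes an interleukin-18 receptor subunit, at 0.21. Nearest to Ccl4 were Ms4a4c at 0.06, the orphan nuclear receptor gene Nr4a2 at 0.07 and the drug efflux pump gene Abcb1b at 0.07. Nearest to Ccl3 were Zfpm1, encoding a cofactor of GATA factors, at 0.09, Smok4a at 0.10 and Ifna7, a type I interferon, at 0.10; the last 2 belong to families of near-identical copies, which makes their values uncertain.

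Several of these chemokines are also made by natural killer cells and myeloid cells, so markers of other cell types were read beside them. Of 10 monocyte and macrophage markers 5 had a value, and their summed linear level was 1061 on the CXCR3+ innate array, 1087 on the CXCR3- innate array and 1184 on the naive array. Ctss, a lysosomal protease gene, differed most, at 8.65, 8.65 and 9.01 in that order, and the other 4 summed to 658.7, 684.2 and 670.3 without it, while Lyz2, Cd14, Csf1r, Cybb and S100a8 have no value in the table. Of 7 natural killer markers 2 had a value, with a summed level of 280.7, 299.4 and 267.8 on the CXCR3+ innate, CXCR3- innate and naive arrays. Ncr1, encoding NKp46, read 7.19, 7.43 and 7.19. Fcer1g, the other one, read 7.07, 6.98 and 6.93, in the same order of arrays as Ccl5, with small steps. Klrb1c, Klra8, Klre1, Itga2 and Tyrobp have no value. No dendritic cell marker of 7 and no B cell marker of 5 had a value. Platelet genes, 3 of 4 with a value, summed to 498.3, 498.3 and 495.8. The part of other cell types in the chemokine values was not tested.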

How the data were processed

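RNA of 3 sorted CD8+ T cell populations was biotin-labelled and hybridised, 1 array each, per the labels' protocols. The deposited values are log2 expression values; RMA and Affymetrix Expression Console are named in the submitters' processing notes, and their versions and the genome build of the array are not given in the sources used here. As RMA subtracts background, gives arrays one common distribution and summarises probes by median polish, differences are relative to each array as a whole. The deposited values themselves do not share one distribution exactly. Quantile normalization of them changed the genes called in CXCR3- innate minus naive from 25 to 11.

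The table has 12417 probe sets, of which 10576 carry 1 symbol, 1108 several and 733 none. For 273 genes the log2 values of more than 1 probe set were averaged, giving 10191 genes. All 3 possible differences were read by the size rule given with the results; no p-value or error could be computed, and the number of arrays limits the precision. Genes were named by rule: the members, the nearest genes and all measured receptors. Of the chemokine, regulator and effector lists, up to 6 genes with the largest absolute difference were named, plus those passing the size rule. Cell type markers were named only in part. Those of naive T cells, of CD4 and regulatory T cells, of NKT and gamma-delta T cells and of erythroid cells were left out. Members and lists were chosen with earlier results of these data known. Simulated data with known differences and an assumed noise were used to check the 2-fold threshold, without the filter on dim genes. As no replicate gives the noise of these arrays, the simulation cannot show how often the rule errs on them. Results were recomputed without the filter on dim genes, at 1.5-fold and 3-fold, after centring on the median, cyclic loess or quantile normalization, with a linear offset of 16, and with the brightest probe set per gene. Python 3.11.15, numpy 2.4.6, pandas 2.3.3, matplotlib 3.10.9, R 4.3.3 and limma 3.58.1 were used.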

Additional observations from a re-analysis of the deposited data

How the results depend on the processing

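Among the alternatives only the 3 rescalings (quantile normalization, cyclic loess and centring) could turn a direction. Under them all 45 differences of the 5 genes other than Cxcl16 kept their sign and their side of the size rule, and the differences of Cxcl16, 0.00 as deposited, ranged between -0.01 and 0.03. Over the values as reported and all 8 alternatives, the Ccl5 difference from naive cells ranged between 4.56 and 4.69 in the CXCR3+ population. It ranged between 2.93 and 3.14 in the CXCR3- population, and between 1.48 and 1.64 for CXCR3+ minus CXCR3- innate cells. Xcl1 ranged between 1.27 and 1.37, 0.56 and 0.65, and 0.71 and 0.74 in the same comparisons and settings. The calls that changed were those of Xcl1, which by construction of the threshold was lost in CXCR3+ innate minus naive at 3-fold (difference 1.34) and gained at 1.5-fold in CXCR3- innate minus naive (0.60) and between the innate populations (0.74). The members called were therefore 1 at 3-fold in CXCR3+ innate minus naive, and 2 at 1.5-fold in each of the other comparisons. Over all genes, both directions together, 24 genes were called in CXCR3+ innate minus naive, 122 at 1.5-fold and 5 at 3-fold. In CXCR3- innate minus naive 25 were called, 173 at 1.5-fold, 4 at 3-fold and 11 after quantile normalization, with 2 higher and 9 lower, against 2 higher and 23 lower as reported. The share of higher calls was thus 18.2% after quantile normalization and 25.0% at 3-fold (1 of 4), against 8.0% as reported. Between the innate populations 16 were called, 110 at 1.5-fold and 2 at 3-fold. Of these, 15, 102 and 2 were higher on the CXCR3+ innate array. No paired analysis was possible because each population has 1 array. For the same reason no array could be left out. Values near the array median, those of Ccl3, Ccl9 and Cxcl16 and the naive values of Ccl5 and Xcl1, are limited by signal over background, which the deposited values do not give.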
